A study of Mus musculus with 6 samples.

Results

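H3K4me3, the trimethylation of lysine 4 on histone H3, was compared between STHdh Q111 cells given loxapine and the same cells given vehicle. Both lists were taken from a series of 6 H3K4me3 peak lists, 1 per condition. The mutant vehicle list, labelled Q111SST, held 40406 peaks and the loxapine list held 45564. STHdh cells are conditionally immortalised progenitors from mouse striatum. Q111 cells carry an expanded CAG repeat knocked into the mouse huntingtin gene, and Q7 cells carry the normal repeat. Every sample was labelled C57BL/6, and every culture was kept without serum for 24 h. Compounds were added at 10 uM, and vehicle was DMSO. The 4 other lists came from Q7 cells with vehicle and from Q111 cells with cyproheptadine, DKI or meclizine. They are used here only beside loxapine values. Each genotype was represented by a single cell line, so that line and genotype cannot be told apart. The study states triplicates for its RNA, metabolite and protein profiling, and its H3K4me3 methods give no number of replicates. Each condition has a single list, and how many cultures entered it is not given in the sources used here.

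H3K4me3 is laid down by the SET1 and MLL methyltransferases around the starts of transcribed genes. It usually flanks a nucleosome-poor stretch at the start itself, and CpG-rich promoters carry it most strongly. Weak H3K4me3 is also found at active enhancers, which are often bound by AP-1 factors. Loxapine is a tricyclic antipsychotic that binds dopamine, serotonin, histamine, muscarinic and adrenergic receptors.

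A gene was called marked where a peak lay within 1 kb of the start of one of its protein-coding transcripts (GENCODE vM21, 21842 genes). Promoter strength was the percentile, within its own list, of the highest score among those peaks. The score is the whole number in column 5 of each list, and it was at least 10 in both. With 1 list per condition no comparison could be tested, and every difference below is between these 2 lists. Intervals of shares are 95% Wilson intervals, which cover counting error only. Because the loxapine list is longer, each comparison was repeated with its 40406 strongest peaks, which score 16 or more. Read depth is not known from the lists.

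Markers of neural progenitors and of mesenchyme were both marked. Of 10 neural progenitor genes, 8 were marked in both lists: Nes, Sox2, Sox9, Vim, Pax6, Notch1, Hes1 and Fabp7. Gsx2 was marked in neither. Of 17 striatal neuron genes 9 were marked in both, among them Foxp1, Dlx1, Ebf1 and Meis2, while Drd1, Drd2, Gad2 and Isl1 had no peak in either. All 5 oligodendrocyte genes and all 5 genes of other tissues were unmarked in both lists. The astrocyte genes Gfap, Aqp4 and Aldh1l1 were unmarked, and Slc1a3 was at percentile 86.2 in Q111SST and 85.8 with loxapine. Of 5 mesenchymal genes 4 were marked in both, with a median Q111SST percentile of 75.1, against 45.5 for the progenitor genes. Col1a1 was at percentile 75.5 and 72.6, and Col1a2 at 70.2 and 65.6. Pdgfrb fell from 74.7 to 58.1, and Twist1 was at 79.4 and 34.5 with peaks that did not overlap. Their median change was -10.6 points, -15.45 in the lists of equal size and -3.09 when peaks were ranked by score times width. Of 5 endothelial genes Kdr fell from 88.4 to 68.0 and Tek was lost from percentile 18.7. Of 5 microglial genes Aif1 was lost from 4.9 and P2ry12 was gained at 35.8. The part of these cell type markers in the results below was not tested.

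The loxapine list held 8662 peaks that no Q111SST peak overlapped, which was 19.01% of the list. Another 3966 Q111SST peaks (9.82%) had no overlapping loxapine peak. Peaks absent from Q111SST numbered 4059 in the cyproheptadine list, 2030 with DKI, 3910 with meclizine and 10363 in Q7SST. These comparisons share the Q111SST list. Additional loxapine peaks were mostly weak. Their median score was 19 against 57 for shared loxapine peaks, and their median width was 376 bp against 935 bp. The loxapine list was divided by score into 5 bins of about equal size. In the lowest bin, with scores of 10 to 21, 54.9% of peaks were additional. The share was 28.6% at scores of 22 to 35, 9.71% at 36 to 58 and 1.38% at 59 to 100. Among the 9162 peaks with still higher scores it was 0.0982%, or 9 peaks.

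The additional peaks lay away from gene starts. Only 8.66% (8.08% to 9.27%) were within 1 kb of an annotated start of any gene, against 40.9% (40.4% to 41.4%) of shared loxapine peaks. Among the Q111SST peaks absent from loxapine, 16.6% (15.5% to 17.8%) were near a start, so that the additional loxapine peaks were the more distal of these weak classes. Introns held 47.95% (46.89% to 49.0%) of additional peaks and 31.7% of shared ones. Intergenic sequence held 40.7% (39.7% to 41.7%) and 25.5%. Exons held 2.71% and 1.97%. In the lists of equal size 5450 additional peaks remained, and 8.75% of them were near a start.

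**Figure D1:**
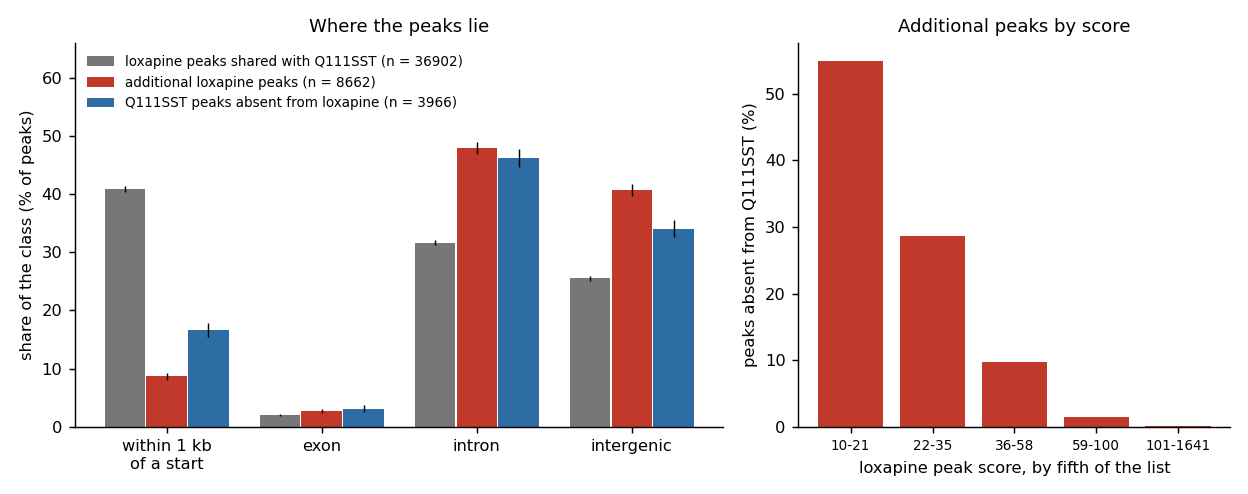
The left panel plots the share of each peak class (y axis, percent of peaks) within 1 kb of a start, in exons, in introns and between genes, with 95% Wilson intervals as error bars; the right panel plots the share of loxapine peaks that Q111SST lacked in each of 5 bins of the loxapine scores. Additional peaks sit mostly in introns (47.95%) and between genes (40.7%), and their share falls from 54.9% in the lowest bin to 0.0982% in the highest.

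Few additional peaks were edges of a Q111SST peak. The median distance to the nearest Q111SST peak was 12218 bp. It was 1 kb or less for 4.09% of additional peaks, 5 kb or less for 25.4% and 10 kb or less for 44.5%. The median distance to an annotated start was 11935 bp, against 3840 bp for shared peaks. Of the 750 additional peaks near a start, 443 (59.1%) lay at a protein-coding gene and 162 (21.6%) only at long non-coding RNAs. For shared peaks near a start these shares were 89.1% and 6.99%. Of 3661 additional peaks in introns of coding genes, 81.3% (80.02% to 82.55%) lay in a gene whose start was marked in Q111SST. The share was 84.9% (84.2% to 85.6%) for shared intronic peaks.

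The additional peaks were spread over the genome. They made up 15.3% of loxapine peaks on chromosomes 11 and 17 and 22.1% on chromosome 12, which were the lowest and highest shares among the autosomes and X. The bodies of 2889 coding genes held at least 1, and 2074 of these held exactly 1. Pde4d, a cAMP phosphodiesterase, held 18 additional peaks over 1503.5 kb, where loxapine had 48 peaks and Q111SST had 36. Dlg2, a postsynaptic scaffold gene, held 12 over 1972.6 kb, with 27 peaks against 16. Fgfr2, a fibroblast growth factor receptor, held 10 over 2960.9 kb, the longest annotated body of the genes named here, with 25 against 14. Hdac9, a class IIa histone deacetylase, held 8 over 869.5 kb, with 15 against 8. Mbd5, a methyl-CpG-binding domain gene, held 7 over 375.9 kb, with 14 against 7. These genes were picked after their counts were seen, and long genes have more room for peaks.

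Some additional peaks recurred in other lists. Of the 8662, 24.2% overlapped a meclizine peak, 22.2% a Q7SST peak, 17.2% a cyproheptadine peak and 10.5% a DKI peak. None of the 4 lists held 4473 of them (51.6%), and 2 or more lists held 1597 (18.4%). Shared loxapine peaks overlapped these lists at 91.4%, 73.5%, 79.1% and 76.6%, in the same order. The Q111SST peaks absent from loxapine overlapped them at 36.8%, 31.3%, 7.39% and 9.83%. The lists differ in length, from 30758 peaks with DKI to 40406 in Q111SST among those other than loxapine.

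The centres of the additional peaks held the AP-1 motif TGANTCA, searched on both strands, more often than those of the peaks that loxapine lacked. In the central 300 bp it was present in 37.2% (36.1% to 38.2%) of 7903 additional peaks away from starts whose sequence was read. The share was 35.2% (34.6% to 35.8%) for 21754 shared peaks away from starts and 24.4% (23.0% to 25.9%) for 3294 Q111SST peaks absent from loxapine. Restricted to scores up to 35, these shares were 36.9%, 32.9% and 24.6%. Over all loxapine peaks the share was 26.7%, and over promoters of coding genes, taken from 250 bp before to 50 bp after the start, it was 7.00%. Median GC content was 41.3% in the additional peaks away from starts and 43.7% in the shared ones, and its part in the difference was not tested. Additional peaks were poor in CpG islands. An observed to expected CpG ratio above 0.6 was found in 1.64% of those away from starts and 11.7% of those near one, against 47.0% of shared peaks near a start. For shared peaks away from starts it was 5.09%. The GC box GGGCGG was present in 3.32% of additional and 6.59% of shared peaks away from starts, and in 11.3% and 33.5% of those near a start. The CRE motif TGACGTCA was present in 0.381% of additional peaks.

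The strongest additional peak lay at chr17:30571132-30571483, 346 bp from a start of Btbd9, which encodes a BTB domain protein. It scored 199, at percentile 98.0 of the loxapine list, and the nearest Q111SST peak was 3753 bp away. Peaks over it scored 86 with cyproheptadine, 36 with DKI and 88 with meclizine, and Q7SST had none. Among additional peaks at least 1 kb from a Q111SST peak, the next 4 lay between genes, at percentiles 83.3 to 86.8. The peak at chr11:96895661-96896350, nearest to Cdk5rap3, scored 123 and was 19146 bp from a Q111SST peak. Those nearest to Tmem121 and Wnt9a scored 120 each, 36315 bp and 4064 bp from the start of the gene. The last was 83849 bp from Grin3a, which encodes an NMDA receptor subunit, at percentile 83.3. Central sequences of the Btbd9 and Cdk5rap3 peaks are given from the GRCm38.p6 genome, plus strand, to show what the strongest additional sites contain. Capitals mark AP-1 or CRE matches.
Btbd9 peak, chr17:30571158-30571457: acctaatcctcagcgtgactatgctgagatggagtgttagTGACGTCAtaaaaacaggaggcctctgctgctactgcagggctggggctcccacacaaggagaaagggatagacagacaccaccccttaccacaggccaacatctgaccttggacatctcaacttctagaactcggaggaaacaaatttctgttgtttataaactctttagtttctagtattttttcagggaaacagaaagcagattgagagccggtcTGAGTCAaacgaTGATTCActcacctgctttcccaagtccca
Cdk5rap3 peak, chr11:96895856-96896155: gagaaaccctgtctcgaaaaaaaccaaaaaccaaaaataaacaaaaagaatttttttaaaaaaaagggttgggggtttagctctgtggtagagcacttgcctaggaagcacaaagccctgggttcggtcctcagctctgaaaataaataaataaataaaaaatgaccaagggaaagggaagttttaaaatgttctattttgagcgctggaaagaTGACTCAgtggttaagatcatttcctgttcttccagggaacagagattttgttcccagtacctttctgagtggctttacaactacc
The Btbd9 peak held 2 AP-1 matches and 1 CRE match in 300 bp. The Cdk5rap3 peak held 1 AP-1 match, and 74.0% of its central bases were soft-masked as repeats. At least 50% of the central bases were soft-masked in 7.79% of all additional peaks and in 5.39% of all loxapine peaks.

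Peaks present in both lists moved by place as well. Shared peaks away from starts had a median change of 5.48 percentile points with loxapine (interquartile range -4.83 to 16.6, 21585 pairs). Shared peaks near a start had a median of -0.27 points (-5.02 to 4.37, 14725 pairs). In 5 bins of the mean percentile in both lists, the medians away from starts were 2.58, 6.48, 6.59, 6.71 and 3.06 points, from weakest to strongest. Near starts the 5 medians lay between -2.36 and 0.06. With lists of equal size the medians were 1.16 away from starts and -2.28 near them. In the 2 lowest bins of that comparison the medians away from starts were -0.53 and -0.74, beside -2.43 and -9.43 near starts. Against the same Q111SST list, the medians away from and near starts were -5.93 and -4.37 with cyproheptadine, -10.2 and -7.33 with DKI, and -1.36 and -1.59 with meclizine.

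**Figure D2:**
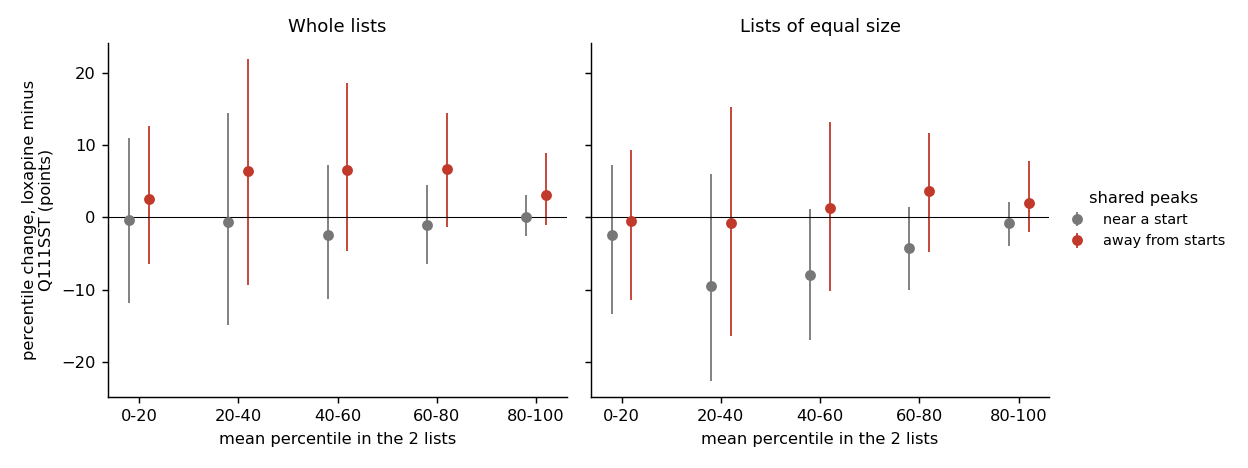
The percentile change of shared peaks (y axis, loxapine minus Q111SST, in points) is plotted by the mean percentile in both lists, for peaks within 1 kb of a start and for peaks away from starts, with medians as points and interquartile ranges as bars. In every bin the peaks away from starts lie above those near a start, both in the whole lists (left) and in the lists of equal size (right).

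Most promoters were marked in both lists. Of 21842 coding genes, 12567 were marked in Q111SST, 12526 with loxapine and 12311 in both. Loxapine gained 215 promoters, 2.32% of the 9275 genes without a Q111SST mark, and lost 256, 2.04% of the 12567 with one. Both sets were weak. Gained promoters had a median percentile of 17.7, against 83.0 for all promoters marked with loxapine, and a median width of 406 bp against 1730 bp. Lost promoters had a median percentile of 14.9 in Q111SST and a median width of 472 bp. No Q111SST peak lay within 5 kb of a start for 154 of the gained genes, and no loxapine peak for 173 of the lost.

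The strongest gained promoters, each with no Q111SST peak within 5 kb, belonged to Naip2, Klra2, Bhlhe22, Snhg11 and Fmo5. Naip2 encodes a bacterial-protein sensor of the inflammasome and Klra2 a receptor of the natural killer cell Ly49 family. Naip2 scored 61 with loxapine, 43 with meclizine and 52 in Q7SST, and had no peak in the other lists. Klra2 scored 51 with loxapine and 19 with meclizine. Both belong to families of similar genes, where short reads may be shared. Bhlhe22, a neuronal basic helix-loop-helix factor, scored 49 with loxapine, 38 with cyproheptadine, 17 with meclizine and 38 in Q7SST. Fmo5, a flavin monooxygenase gene, scored 46 with loxapine, 30 with DKI, 52 with meclizine and 75 in Q7SST. Snhg11 scored 48 and 24 with loxapine and meclizine alone. All 5 loxapine peaks were narrow, at 214 to 342 bp. Cytokine and synaptic genes among the 215 included Csf3 (score 45), which encodes a granulocyte growth factor, and the scaffold gene Homer2 (45). The peak at Klra2, in the direction of the gene, shows how narrow these gains were; capitals mark the AP-1 match.
Klra2, chr6:131247134-131247403, minus strand: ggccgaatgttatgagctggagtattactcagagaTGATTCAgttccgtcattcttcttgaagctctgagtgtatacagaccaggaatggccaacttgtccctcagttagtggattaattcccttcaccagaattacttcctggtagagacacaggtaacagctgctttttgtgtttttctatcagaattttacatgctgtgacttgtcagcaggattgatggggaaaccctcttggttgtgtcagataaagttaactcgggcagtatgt
The Klra2 peak was 43.0% GC with 3 CpG. In RefSeq promoters of gained genes the AP-1 motif was present in 12.8% (8.79% to 18.2%) and a CpG ratio above 0.6 in 24.5%. For promoters marked in both lists these shares were 5.09% (4.72% to 5.49%) and 70.6%.

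The strongest lost promoters with no loxapine peak within 5 kb belonged to Tpm3-rs7, Esam, Spin2c, Sytl1 and Def6, with Q111SST scores of 62, 51, 45, 45 and 45. Esam, an endothelial adhesion molecule, had no peak with cyproheptadine or DKI either, and scored 58 with meclizine and 61 in Q7SST. Def6, an exchange factor of lymphocytes, and Sytl1, a Rab effector of vesicle transport, were marked only in Q111SST and with meclizine, at 40 and 23 there. Spin2c scored 13 with DKI, 28 with meclizine and 85 in Q7SST. Tpm3-rs7 is a tropomyosin-related copy, and its reads may belong to a similar locus. The nearest loxapine peak was 6329 bp from Def6 and 10310 bp from Esam. Also lost were Sema3g, a secreted semaphorin, at a Q111SST score of 43, and Penk, the striatal enkephalin precursor, at 23. Some of the lost and gained calls were set by the window. Cebpb had a Q111SST score of 150 within 1 kb, while the nearest loxapine peak was 1229 bp from a start, and Cdkn1b, gained at a score of 55, had its nearest Q111SST peak at 1750 bp.

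The rank of a typical promoter hardly moved. Over the 12311 promoters marked in both lists the median change was -0.37 points (interquartile range -4.47 to 3.33). It was -2.12 in the lists of equal size, so that a change there reads against that shift. With loxapine 854 promoters (6.94%) were at least 10 points higher and 1179 (9.58%) at least 10 points lower. Both thresholds were also passed in the lists of equal size by 540 of the higher and 1092 of the lower promoters. The balance between the directions depended on the scaling. Lists of equal size gave 540 higher and 2121 lower, peaks scoring at or above the pooled median gave 2145 and 1754, and a centred ratio of scores past 1.5-fold gave 577 and 499. The median Q111SST percentile was 65.2 for the higher and 69.3 for the lower, against 82.6 for all, but a promoter near the top of the scale has no room to rise by 10 points. The median percentile of the higher promoters was 81.1 with loxapine, 72.6 with cyproheptadine, 64.8 with DKI, 67.1 with meclizine and 71.1 in Q7SST. For the lower promoters it was 53.6, 55.5, 52.6, 63.6 and 66.4. Shared peaks near a start had a median change from Q111SST of -4.37 points with cyproheptadine, -7.33 with DKI and -1.59 with meclizine. The medians in those lists read against these shifts. Promoters without a peak in a list were left out of its median, so that 745 of the 854 and 1000 of the 1179 counted with cyproheptadine.

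**Figure D3:**
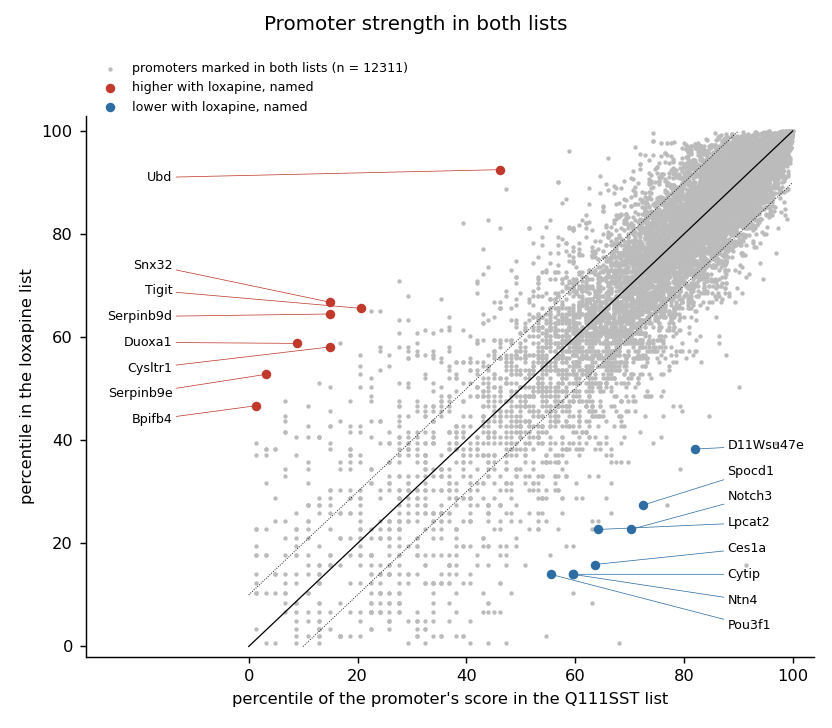
Each point is a promoter marked in both lists, placed by its percentile in Q111SST (x axis) and with loxapine (y axis); the solid line marks no change and the dotted lines a change of 10 points. The 8 named promoters in each direction moved by 41.4 to 51.9 points, and Ubd ends highest of the higher ones, at 92.5.

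Among promoters whose strongest peaks overlapped, and which also passed in lists of equal size, the 8 largest increases belonged to Snx32, Duoxa1, Serpinb9d, Serpinb9e, Ubd, Bpifb4, Tigit and Cysltr1. Ubd, a ubiquitin-like gene of inflammation, rose from a score of 39 to 149 and from percentile 46.2 to 92.5. It scored 12 with cyproheptadine, 76 with meclizine and 29 in Q7SST. Snx32, a sorting nexin, rose from percentile 14.9 to 66.8. Both peaks narrowed, Ubd from 1683 to 307 bp and Snx32 from 1379 to 296 bp, and ranked by score times width neither rose, with changes of -6.09 and -2.23 points. Tigit, an inhibitory receptor of T cells, rose from percentile 20.6 to 65.6 with its width at 1079 and 1246 bp. Cysltr1, a leukotriene receptor, rose from 14.9 to 58.1, and Duoxa1, a maturation factor of a hydrogen peroxide-making oxidase, from 8.8 to 58.8. Bpifb4, of a family of lipid-binding secreted proteins, rose from 1.3 to 46.7. Serpinb9d and Serpinb9e, paralogs of a granzyme inhibitor, rose by 49.6 points each, from scores of 18 to 66 and 12 to 49. Reads of these paralogs may be shared.

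Under the same conditions the 8 largest decreases belonged to Ces1a, Notch3, Ntn4, Cytip, Spocd1, D11Wsu47e, Lpcat2 and Pou3f1. Notch3, a Notch receptor, fell from a score of 77 to 23, or percentile 70.2 to 22.7, while its peak widened from 411 to 1003 bp. It scored 21 with cyproheptadine, 93 with meclizine and 96 in Q7SST, and DKI had no peak there. Pou3f1, a POU factor of neural and glial progenitors, fell from percentile 55.5 to 14.0. Lpcat2, a lysophospholipid acyltransferase, fell from 64.2 to 22.7 as its peak widened from 679 to 1555 bp, and Cytip, a regulator of leukocyte adhesion, from 59.6 to 14.0. Ces1a, a carboxylesterase, fell from 63.6 to 15.9, and Spocd1 from 72.4 to 27.4. By score times width the changes of Notch3 and Lpcat2 were -5.39 and -2.58 points. Ntn4, a netrin, fell from 59.6 to 14.0 by this rule. Its single Q111SST peak of 2337 bp was met by 2 loxapine peaks, of which only the weaker was within 1 kb of a start. D11Wsu47e, at 82.0 and 38.3, likewise had 2 loxapine peaks over its Q111SST peak.

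A stricter set was taken after seeing these cases: promoters past 10 points in the whole lists, in the lists of equal size, with a 5 kb window and by score times width. It held 164 higher and 161 lower promoters. Fabp7, the radial glial fatty acid-binding protein, was among the higher ones, from a score of 33 to 107 and percentile 39.4 to 82.1. It scored 42 with cyproheptadine, 39 with DKI, 73 with meclizine and 89 in Q7SST. Slit2, a guidance cue gene, was among the lower ones, from 76 to 32. Robo2, a receptor for Slit cues, scored 26 and 72, but these were separate peaks that did not overlap. Gtsf1 rose from 40 to 131, Usp2, a deubiquitinase, from 23 to 67, Oxtr, the oxytocin receptor, from 11 to 33, and Pde7b, a cAMP phosphodiesterase of striatum, from 14 to 40. Among the lower, Il11 fell from 56 to 21 and the collagen receptor gene Itga2 from 62 to 24. Cyp27a1 and Cyp46a1, which hydroxylate cholesterol, fell from 91 to 36 and from 73 to 32. The centre of the loxapine Fabp7 peak, plus strand, is given because this gene had the largest increase among the cell type markers; it held none of the motifs searched.
Fabp7, chr10:57784929-57785228: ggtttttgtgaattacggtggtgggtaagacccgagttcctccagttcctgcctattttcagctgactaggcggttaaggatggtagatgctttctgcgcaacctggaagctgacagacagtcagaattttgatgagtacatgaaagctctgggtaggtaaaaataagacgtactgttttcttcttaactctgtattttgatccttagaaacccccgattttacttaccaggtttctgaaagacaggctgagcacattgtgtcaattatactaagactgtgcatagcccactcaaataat

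Width changed more often by narrowing than by widening. The strongest peaks overlapped between lists for 12081 promoters, with a median width ratio of 0.988 (interquartile range 0.909 to 1.05). With loxapine 960 (7.95%) were at least 1.5-fold narrower and 232 (1.92%) at least 1.5-fold wider. Narrower promoters had been broad, with a median of 2366 bp in Q111SST and 939 bp with loxapine. Their medians were 1044 bp with cyproheptadine, 1092 bp with DKI, and 1919 bp both with meclizine and in Q7SST. They were taken over the 833, 852, 943 and 901 of these promoters with a peak in each list. Over all promoters with overlapping strongest peaks the medians were 1827 bp in Q111SST, 1748 bp with loxapine, 1562 bp with cyproheptadine and 1480 bp with DKI. With meclizine and in Q7SST they were 1709 and 1774 bp. Wider promoters had been short, with medians of 638 bp in Q111SST and 1290 bp with loxapine. Where a peak was present, their medians were 724 bp with cyproheptadine, 802.5 bp with DKI, 1017 bp with meclizine and 1271 bp in Q7SST. Of the 795 Q111SST peaks of 3 kb or more, 476 had a loxapine peak of 3 kb or more over them, and 11 had none reaching 1 kb.

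Narrowing often came with a split of the peak. For 469 of the 960 narrower promoters (48.9%) the Q111SST peak was met by 2 or more loxapine peaks, against 4.10% of all 12081, and for the other 491 by 1. Width was that of the strongest piece alone, so that a split by itself tends to give a narrower call. Among split promoters whose Q111SST peak held a start, 463 of 489 were called narrower. Loxapine peaks together still covered a median of 59.5% of the Q111SST peak in the narrower promoters. Over whole lists, 589 Q111SST peaks were split among loxapine peaks, and 130 loxapine peaks spanned 2 or more Q111SST peaks. Among 489 split promoters whose Q111SST peak held a start, the widest gap between loxapine peaks had a median length of 883 bp. It ran from a median of -216 bp to 693 bp about the most upstream start, and it contained a start in 407 (83.2%, 79.7% to 86.3%). Over 864 narrower promoters the median change was -347.5 bp at the upstream edge of the strongest peak and -236 bp at the downstream edge. These are separate medians, and in a split promoter they describe only the strongest piece.

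**Figure D4:**
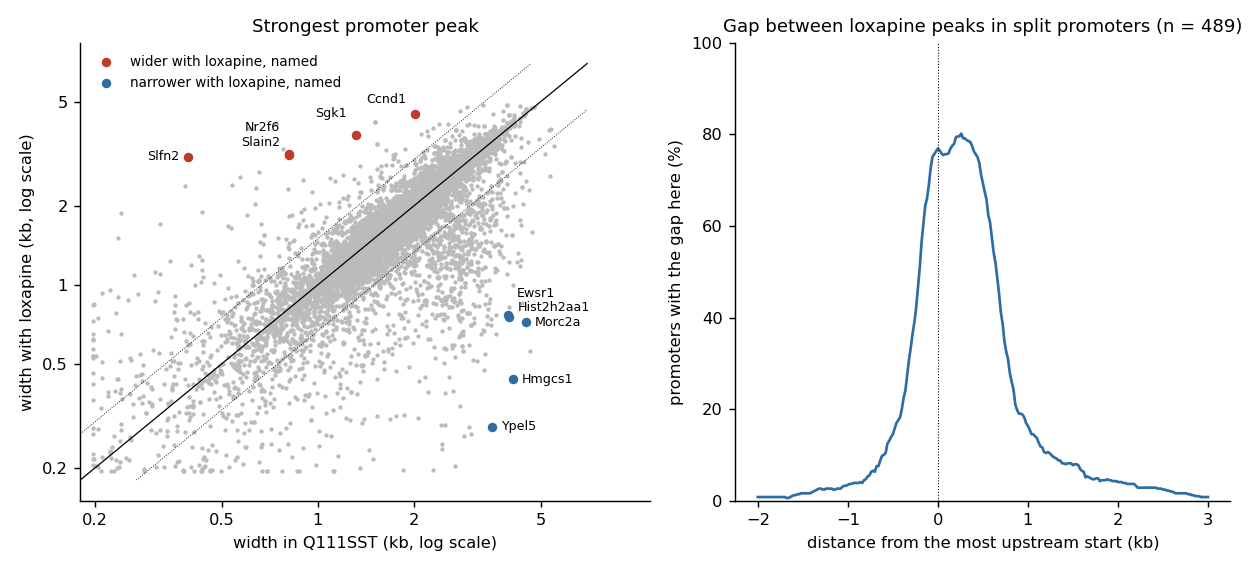
The left panel plots the width of each promoter's strongest peak in Q111SST (x axis) and with loxapine (y axis) in kb on log scales, with a solid line at no change and dotted lines at 1.5-fold; the right panel plots, for 489 split promoters, the share whose gap between loxapine peaks covers each position around the most upstream start. A cloud of broad promoters lies under the lower dotted line, and the gap sits over and just downstream of the start.

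Hmgcs1, the cytosolic HMG-CoA synthase of sterol synthesis, went from 1 peak of 4089 bp to a strongest peak of 437 bp. Of its Q111SST peak 74.3% was still covered, by 2 loxapine peaks, and its percentile was 82.0 and 80.8. The width was 389 bp with cyproheptadine, 988 bp in Q7SST, 3230 bp with DKI and 3306 bp with meclizine. The RefSeq promoter of Hmgcs1, chr13:119690101-119690400 on the plus strand, lies in the gap between the loxapine peaks; capitals mark CCAAT or GC box matches.
Hmgcs1 promoter: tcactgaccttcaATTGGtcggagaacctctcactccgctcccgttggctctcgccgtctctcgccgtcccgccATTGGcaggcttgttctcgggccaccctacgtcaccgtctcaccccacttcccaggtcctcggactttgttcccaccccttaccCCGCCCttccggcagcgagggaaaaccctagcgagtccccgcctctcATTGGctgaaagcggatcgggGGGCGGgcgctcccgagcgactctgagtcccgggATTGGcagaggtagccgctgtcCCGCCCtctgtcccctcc
It was 65.7% GC with 26 CpG, 4 CCAAT matches and 3 GC boxes. CCAAT was present in 37.8% and the GC box in 47.7% of all coding promoters of this length. Ypel5 went from 3516 to 287 bp, and was 266 bp wide with cyproheptadine, 288 bp with DKI, 3309 bp with meclizine and 3204 bp in Q7SST. Morc2a, a chromatin ATPase gene, went from 4496 to 721 bp, and Ewsr1, an RNA-binding protein gene, from 3942 to 766 bp. Hist2h2aa1, a histone H2A gene, went from 3972 to 753 bp. Of these 5 Q111SST peaks 47.5% to 74.3% remained covered. Peaks widened at Ccnd1, the cyclin D1 gene, from 2021 to 4477 bp, and at Sgk1, a serum- and glucocorticoid-induced kinase, from 1317 to 3742 bp. The peak reached 3157 bp from 813 at the orphan receptor gene Nr2f6, 3128 bp from 815 at Slain2, a microtubule-end protein gene, and 3087 bp from 393 at Slfn2. Slain2 was 2867 bp wide with DKI and 736 to 895 bp in the other lists. In all 5 the loxapine peak overlapped 2 Q111SST peaks.

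Rank and width tended to move in opposite directions. Of the narrower promoters 31.0% were at least 10 points higher and 9.06% lower, and of the wider ones 16.4% were higher and 38.8% lower. Among the 10889 in between, 4.52% were higher and 8.88% lower. The median change was 5.74 points in narrower, -6.07 in wider and -0.61 in the others. Ranked by score times width, a measure added after seeing this, 279 of the 854 higher and 262 of the 1179 lower promoters kept their call.

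The receptors that loxapine binds were mostly unmarked, so that counts against the background of 6.94% higher and 9.58% lower rest on few genes. None of 5 dopamine and 5 muscarinic receptor genes had a peak in either list, and neither had Htr2a or Htr2c. Of 14 serotonin receptor genes, Htr1b was at percentile 20.6 and 21.1 while Htr5b fell from 16.8 to 2.1. Hrh1, the histamine receptor gene, was the only marked one of 4, at 84.0 in Q111SST and 87.3 with loxapine, and its peak was 1225 and 814 bp wide. Of 9 adrenergic receptor genes 6 were marked in both. Adra1b rose from 56.9 to 77.9 and Adra2b from 4.9 to 24.3, and 1 other fell. Adra1b scored 30 with cyproheptadine and 31 with DKI, below its 52 in Q111SST.

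The autophagy genes were strongly marked, and shares past 10 points in the autophagy and lysosome lists were below the background of 6.94% higher and 9.58% lower. In the mTOR and AMPK list 2.78% were higher and 8.33% lower, and the lower share is near the background. All 40 autophagy genes were marked in both lists, with a median Q111SST percentile of 89.0, where little room is left to rise by 10 points. Their median change was 0.63 points, against -0.37 for all promoters. Uvrag, a subunit of the class III phosphatidylinositol kinase complex, was the only one past 10 points, from 79.7 to 89.8, and none fell. By score times width Uvrag changed by -6.92. Atg12, of the ubiquitin-like conjugation system, was at 84.0 and 93.4. The LC3 gene Map1lc3b was at 96.5 and 95.9, and Sqstm1, the p62 receptor gene, at 91.1 and 97.3. In the lists of equal size the median change was -0.42, against -2.12 overall. Of 34 lysosome genes none rose, and Ctsd, the cathepsin D gene (81.0 to 60.8), and Smpd1, the acid sphingomyelinase gene (90.3 to 78.3), fell. Tfeb, the lysosomal master regulator, was at 60.2 and 60.8. Of 36 mTOR and AMPK genes Akt1 rose, from 76.2 to 86.5. Prkaa2, an AMPK catalytic subunit (73.2 to 48.6), Tsc2 (90.5 to 78.7) and Deptor (85.4 to 74.0), both mTOR inhibitors, fell. The fall of Prkaa2 went with a widening from 534 to 1654 bp.

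Over all promoters 6.94% higher and 9.58% lower was the background for the lipid and energy genes. Of 31 sterol genes marked in both, 4 fell and 1 rose, with a median change of -2.21. Among the lower ones were Insig1 (82.3 to 68.0), Abca1 (79.0 to 63.3) and Lrp1 (67.1 to 52.0). Abcg1, a cholesterol exporter, rose from 61.9 to 79.4. Of 39 fatty acid and phospholipid genes 5 fell, among them Fasn, fatty acid synthase (65.2 to 52.0), and Chka, choline kinase (75.1 to 57.3). Acsl1, an acyl-CoA synthetase, rose from 82.9 to 96.6, and Dgka, a diacylglycerol kinase, from 40.6 to 60.2. Of these 9 falls only that of Acacb, an acetyl-CoA carboxylase, passed 10 points by score times width (-11.3). Of 28 glycolysis genes 4 rose, Pkm (59.0 to 81.1), Tpi1 (53.1 to 71.7), Slc16a3 (45.2 to 63.9) and Gpi1 (66.6 to 81.4), and 4 fell, Slc2a1 (83.4 to 72.2), Pfkl (89.6 to 78.3), Aldoa (71.5 to 60.8) and Eno2 (81.3 to 66.8). The list's median change was -4.58, and 0.35 by score times width, and 1 further gene was lost. Of 43 respiratory chain genes 2 rose and 3 fell, with a median of -1.21, and 1.86 by score times width.

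Among developmental signalling, matrix and potassium channel genes, shares of lower promoters were above the background of 9.58%. In the axon guidance, Wnt and potassium channel lists shares of higher promoters were also above 6.94%, at 9.09% in potassium channels. In the TGF-beta and BMP list 7.41% were higher, near the background. The median change was -0.33 in axon guidance and 1.04 in Wnt genes. Of 40 axon guidance genes 7 (17.5%) rose and 12 (30.0%) fell. Ephb2 rose from percentile 62.5 to 85.8 and Epha7 from 47.2 to 69.0, and Sema6d fell from 52.3 to 31.8. Of 35 Wnt genes 5 rose, among them Wnt1 (36.8 to 62.0), and 8 fell, among them Wnt3 (36.8 to 12.2) and the target gene Axin2 (77.9 to 60.2), and 8 of 33 were narrower (24.2%, against 7.95% of all promoters). Of 23 Notch and Hedgehog genes 5 fell, among them Notch3, Notch4, Hes1 and Gli2, and Cdon rose. Gli2 went from a peak of 2213 bp at percentile 33.9 to one of 389 bp at 2.1, and its Q111SST peak held another loxapine piece, beyond a gap that ended 1113 bp from the most upstream start. Of 22 potassium channel genes 8 (36.4%) fell and 2 rose, with a median of -6.27. By score times width the median was -0.63, and 3 of the 8 were lower by 10 points or more. Kcnd1 went from 46.2 to 6.7. Kcnn1, a calcium-activated channel, was at 76.9 and 27.4, but its strongest peaks did not overlap between lists. Of 36 matrix genes 7 fell, among them Loxl1, a collagen cross-linking enzyme (57.6 to 28.9), and Itga5 rose. The list's median change was -1.18, and 1.32 by score times width. The Q111SST peak of Loxl1 also held another loxapine piece, beyond a gap that ended 1265 bp from the most upstream start. Lox itself was at 84.6 and 44.7, but its stronger loxapine peak, over the gene, lay outside the 1 kb window. The median Q111SST percentile was 63.9 for axon guidance, 66.6 for Wnt and 61.4 for potassium channels, against 82.6 for all marked genes.

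**Figure D5:**
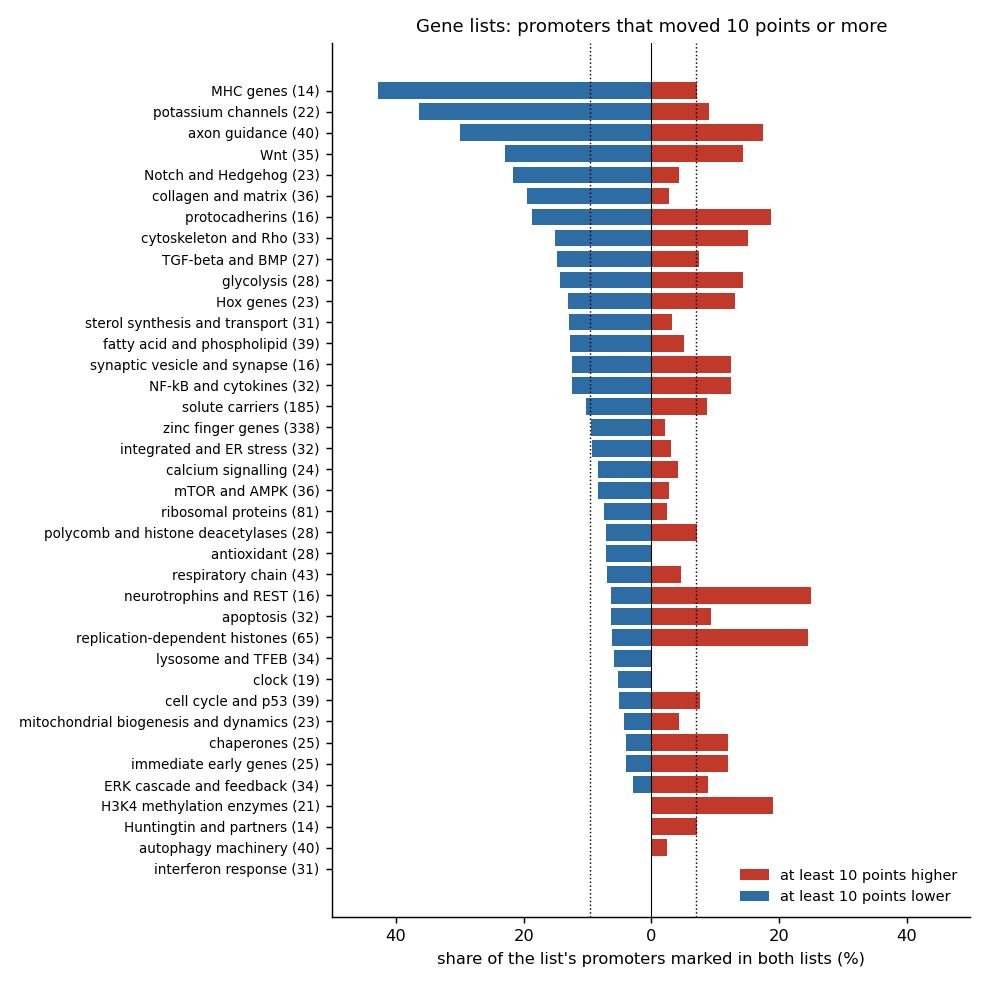
Bars give, for each gene list with at least 14 promoters marked in both lists (number in brackets), the share at least 10 percentile points higher (right) or lower (left) with loxapine; dotted lines mark the shares over all promoters, 6.94% and 9.58%. MHC genes, potassium channels and axon guidance have the longest bars to the left, and neurotrophin genes and histones the longest to the right.

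Histone and chromatin genes are set against the same shares, 6.94% higher and 9.58% lower. Of 65 replication-dependent histone genes marked in both, 16 (24.6%) were higher and 4 lower, but clustered genes share peaks, and these were 10 and 3 distinct peaks of 39. The cluster peak of Hist1h2ad, Hist1h2bf and Hist1h3d went from a score of 60 to 107, and the peak at Hist1h4i from 36 to 66. By score times width the changes differed among the higher genes: 9.4 points at Hist1h2ad, 10.1 at Hist1h2af and -25.1 at Hist2h2aa1. The median change of the list was 1.16, and 3.53 by score times width. The loxapine peak at Hist1h4i spanned 2 Q111SST peaks, and at Hist1h2ag and Hist1h2bj, which lie at the stronger of them, it was a change from 78 to 66. Of 21 genes for H3K4 methyltransferases, demethylases and their partners 4 rose and none fell. Setd1a went from 76.9 to 88.3, Setd1b from 56.9 to 72.6, Kmt2c from 79.7 to 90.6 and the demethylase gene Kdm5b from 27.6 to 40.6. Kdm5b narrowed from 2306 to 197 bp, with another loxapine piece beyond a gap that ended at 1566 bp, and 5 of the 21 were narrower (23.8%, against 7.95% of all promoters). By score times width the list's median change was -1.06. Of 28 polycomb and deacetylase genes 2 rose and 2 fell, among them Ezh1 (54.7 to 73.1) and Hdac11 (68.5 to 43.7).

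Stress and immune lists are given beside the background of 6.94% higher and 9.58% lower. The interferon and antioxidant lists were below both shares, the last with none higher and 2 lower of 28. In the endoplasmic reticulum stress list 3.1% were higher and 9.4% lower, and the lower share is near the background. Of 25 chaperone genes 3 rose, Hspa1a (80.3 to 96.6), Hspa4 (80.7 to 96.6) and Hspa8 (60.2 to 73.6), and Hsp90aa1 fell (68.9 to 58.8). The Q111SST peak of Hspa8 was split as well, and its strongest piece was narrower. Of 32 endoplasmic reticulum stress genes Ppp1r15b rose, from 82.3 to 96.9, while Chac1 fell, from 85.9 to 63.9, as did Sel1l and Vldlr. Of 32 apoptosis genes the BH3-only genes Bmf (74.3 to 99.7) and Bik (49.1 to 74.8) rose, as did Apaf1, while Fas (92.4 to 81.4) and Bok (73.6 to 58.8) fell. Bmf scored 87 and 267. Of 25 immediate early genes Jund (72.0 to 92.6), Junb (43.0 to 54.4) and Nr4a3 (62.5 to 73.1) rose and Klf4 (83.7 to 69.5) was lower, with strongest peaks that did not overlap between lists. All 3 of the rising ones were narrower, Jund from 3018 to 269 bp, and all 3 did not rise by score times width. Of 31 interferon genes none passed 10 points in either direction. Of 14 MHC genes 6 (42.9%) fell, among them H2-D1 (62.5 to 48.6) and H2-Q4 (72.4 to 55.9), and H2-DMb1 rose. In that list the median change was -6.10, and -0.35 by score times width. Of 32 cytokine and NF-kB genes 4 rose, among them Ccl2 (18.7 to 37.1) and Ccl5 (27.6 to 42.7), and 4 fell, among them Cxcl10 (84.3 to 72.2).

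Neural genes moved in both directions, over the same background of 6.94% higher and 9.58% lower. Among the progenitor markers Nes, an intermediate filament gene, rose from percentile 41.9 to 68.5 along with Fabp7, while Sox2 (65.6 to 50.3), Sox9 (49.1 to 34.5) and Hes1 (39.4 to 28.9) fell. The Q111SST peak of Hes1 was split, with a gap from 1257 to 2083 bp of the most upstream start. Nes scored 35 in Q111SST, 73 with loxapine, 30 with DKI, 39 with meclizine and 150 in Q7SST. Sox2 scored 67, 46, 43 and 97 in the same order, 28 with cyproheptadine, and had no Q7SST peak. Vim, Pax6, Hes1 and Fabp7 were narrower, 4 of 8 against 7.95% of all promoters. Of 16 neurotrophin and cAMP-response genes 4 rose. They were Bdnf (65.2 to 80.1), Ntf5 (27.6 to 46.7), Crem (86.5 to 98.6) and Crtc3 (75.8 to 91.7), and all 4 were narrower. By score times width only Bdnf among them had a positive change, of 5.49 points. The neurotrophin receptor gene Ntrk3 was lost from a score of 21, and Vgf, a neuropeptide precursor, fell from 63.6 to 44.7. Among 14 huntingtin and partner genes Atxn2 was called higher, from 59.0 to 96.1, but its strongest peaks did not overlap between lists.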

How the data were processed

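The authors deposited 1 H3K4me3 peak list per condition, with a score per peak in column 5. Per the labels, reads were mapped to mm10, and the processing notes name Trimmomatic 0.36, Bowtie2, SAMtools 1.3 and MACS2. How the deposited score was made, and how many cultures entered each list, is not given in the sources used here. No peak ended past a chromosome end of GRCm38.p6. Peaks sharing at least 1 bp were called shared. Percentiles were mid-ranks within each list. Locations used GENCODE vM21 transcript starts of all biotypes, and sequence came from RefSeq GRCm38.p6. The 55 gene lists and the members were chosen with earlier results of these data known. Named genes were the 8 largest rank changes per direction that held with lists of equal size and overlapping peaks. They also included the 5 strongest gained and lost promoters with no peak of the other list within 5 kb, and list members. The 5 largest width changes per direction that held after joining peaks within 1 kb were named too. So were the 5 strongest additional peaks at least 1 kb from a Q111SST peak. Scripts (Python 3.11.15, pandas 2.3.3, pysam 0.24.0) were checked on simulated lists. Some items are not reported here.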

Additional observations from a re-analysis of the deposited data

How the results depend on the processing

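No paired analysis was possible because the lists carry no replicates. Lists of equal size gave 5450 additional peaks, 540 higher and 2121 lower promoters. Keeping only peaks that scored no less than the pooled median gave 4924 additional peaks, 13.5% of them near a start, with 2145 higher and 86 wider promoters. It turned the median rank change of shared peaks near a start to 0.52. A reciprocal overlap of 50% gave 14372 additional peaks, 15.9% near a start. A peak required over the start gave 912 lost, 447 higher, 102 wider and 340 narrower promoters, and a 5 kb window gave 368 gained. Percentiles among shared promoters gave 2207 higher and 2281 lower, and the centred log2 score ratio gave 499 lower. Score times width, chosen after seeing the data, gave 495 higher and 599 lower, and turned the near-start median to 0.85. The cause of these differences was not tested. Joining peaks within 1 kb, or keeping chromosomes 1 to 19 and X, moved none of the 8 counts and shares by over 1.5 times, but only 615 of the 960 narrower promoters were also narrower after joining. The median rank change away from starts was above 0 in each of the 5 settings that gave one, from 1.16 to 10.5 points. Read depth behind each list is not known, which limits what the weak additional peaks can show.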

Other observations

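Large gene families gave a further view of the loxapine list. Of 338 zinc finger genes marked in both lists 7 (2.07%) were at least 10 percentile points higher and 32 (9.47%) lower, against 6.94% and 9.58% of all promoters. Their median Q111SST percentile was 89.35, against 82.59 for all, and a promoter near the top of the scale has no room to rise by 10 points. Of 81 ribosomal protein genes 2 rose and 6 fell, with a median change of -1.995, and 1.33 by score times width. Solute carrier genes, the transporters of small molecules, were near the overall shares, with 16 higher and 19 lower of 185. Olfactory receptor genes are silent in most tissues, and 11 of 1133 were marked in Q111SST and 15 with loxapine, with 4 gained and none lost. Over all genes unmarked in Q111SST, 2.32% were gained, a larger share than among these. In the gamma protocadherin cluster Pcdhga7 rose from 22.4 to 65.1, while Pcdhga3 (85.7 to 68.0) and Pcdhga5 (74.3 to 58.1) fell.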
